A study of Mus musculus with 6 samples.

Results

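The transcripts of 10 amino acid transporters of the plasma membrane were examined in white adipose tissues (WATs) of control and Ntsr2 AKO mice. They are Slc7a5, Slc3a2, Slc7a1, Slc7a8, Slc7a10, Slc1a3, Slc1a4, Slc1a5, Slc38a1 and Slc38a2, picked by gene symbol from 21456 genes in the deposited table, and all 10 were found. The members were named with results of this same comparison already known, so their differences between the genotypes are given as a description. RNA-seq was performed on adipose tissue of 6 chow-fed mice, 3 of them controls with the genotype Ntsr2 flox/flox and 3 with the genotype Adipoq-cre::Ntsr2 flox/flox, named Ntsr2 AKO. The floxed alleles are thus common to both groups, and Adipoq-cre is active in white and brown adipocytes but not in the other cells of a fat pad. The fat depot, sex and age of these mice are not given in the sources used here.

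Amino acids cross the plasma membrane only through carriers, and a cell sets its uptake in part by how many of them it makes. SLC3A2, the heavy chain known as 4F2hc or CD98, holds light chains of the SLC7 family at the cell surface, among them SLC7A5, SLC7A8 and SLC7A10. ATF4, a transcription factor of the integrated stress response, turns on transporter genes together with genes for amino acid synthesis and for the loading of tRNAs. PERK, a sensor of the unfolded protein response (UPR), is one of the kinases upstream of ATF4, and the study asked whether the loss of Ntsr2 from adipocytes alters the UPR in WATs. SLC7A10 is known as a surface protein of white adipocytes.

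ATF4 binds with C/EBP proteins to a composite element whose core reads TGATGNAA. This core was searched on both strands in promoters of 250 bases before to 50 bases after each start, from RefSeq on GRCm38.p6. Windows were found for 7 members (Slc3a2, Slc7a1, Slc7a8, Slc7a10, Slc1a3, Slc1a4 and Slc38a2), and 1 of the 7, that of Slc1a4, holds the core, against 4.51% of all genes with a window. Of the other plasma membrane transporters, 2 of 22 hold it, Slc7a7 and Slc7a11. 1 site of each of these transporters and, for comparison, of the ATF4 targets Chac1 and Atf3 is shown 5′ to 3′ on the strand of the gene, with the core in capitals (TTGCATCA is TGATGCAA on the other strand).
Slc1a4, chr11:20332700-20332727, minus strand: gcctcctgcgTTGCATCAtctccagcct
Slc7a11, chr3:50443662-50443689, minus strand: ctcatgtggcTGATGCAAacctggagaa
Slc7a7, chr14:54417928-54417955, minus strand: acctagaagcTGATGCAAcagcttcccc
Chac1, chr2:119351039-119351066, plus strand: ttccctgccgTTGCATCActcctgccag
Atf3, chr1:191183426-191183453, minus strand: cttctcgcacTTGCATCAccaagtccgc
The core of Slc1a4 begins at -4, so that it straddles the start of the transcript, and the one of Chac1 begins at -193. A match is a run of letters only, and elements farther from the start were not searched.

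The values were read counts divided by a size factor for each mouse, called normalized counts below. The recovered read totals lay between 60405373 and 66098226 for control mice, against 54085088 to 56268725 for Ntsr2 AKO mice, so every control mouse had more reads counted on genes. The targeted gene followed the labels, with 64.0 to 152.5 normalized counts of Ntsr2 in control mice, against 0 to 8.29 after deletion. All 7 white adipocyte markers were found in every mouse. Their sum of 1056492 to 1558108 in control mice overlapped that of 1354335 to 1566872 in Ntsr2 AKO mice. Fabp4 was the largest part of this sum, with 771426 of 1389181 in control 3 and 952064 of 1354335 in Ntsr2 AKO 5. Ntsr2 AKO 5 was the lowest of all mice for Plin1 (45063.7), Cidec (98642.8) and Lipe (65950.5). This did not hold for Adipoq, Lep, Fabp4 and Pparg. The part of these single markers in the results was not tested. The sum of 5 mammary epithelial markers was 7.22 to 191 in control mice but 0 to 5.18 in Ntsr2 AKO mice, where Epcam, Krt5 and Krt14 were at 0, and its part in the results was not tested. RNA of skeletal muscle set some mice apart. The sum of 10 muscle markers, 3 of them above 0 in every mouse, was 912, 415 and 2579292 in control 3, 4 and 5, against 1430, 84040 and 184068 in Ntsr2 AKO 3, 4 and 5. In Ntsr2 AKO 3 the muscle genes Ckm and Myh4 were at 0. These mice bear on the results below, and differences are therefore also given for control 3, control 4 and Ntsr2 AKO 3 alone, which leaves 1 Ntsr2 AKO mouse. In whole tissue, fewer cells of a type and less RNA per cell cannot be told apart.

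The 10 transporters differed widely in level. Levels of different genes were compared as normalized counts per kilobase of exon, which covers the union of the exons of a gene in GENCODE M21 on GRCm38. Slc1a5, the glutamine carrier ASCT2, was at 21887 ± 4542 (SD, n = 3) in control mice, higher than 99.3% of the tested genes that have a length. It made up 63.6% of the summed level of the 10 transcripts. Slc7a10, the carrier Asc-1 for alanine, serine and cysteine, followed with 5224 ± 899, and Slc1a3, a glutamate and aspartate carrier, with 3828 ± 605. Slc3a2 was next with 2149 ± 211. Slc38a2, a sodium-coupled carrier of small neutral amino acids, had 709.9 ± 261 per kilobase, and Slc7a8, a light chain for neutral amino acids, had 336 ± 115. The ranges of the control mice did not overlap between any neighbours down to this place in the order. The margin was narrow between Slc7a10 (lowest 4517) and Slc1a3 (highest 4378), and it rests on annotated exon lengths of 2111 and 8537 bases.

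The lower end held Slc7a5, which imports leucine and other large neutral amino acids, at 103 ± 24.9 per kilobase (n = 3 control mice). Slc7a1, the arginine and lysine carrier CAT1, was at 89.9 ± 12.8 and Slc1a4, the alanine, serine and cysteine carrier ASCT1, at 59.8 ± 26.0. The ranges of Slc7a5 and Slc7a1 overlapped in control mice, and so did those of Slc7a1 and Slc1a4, so that these neighbours did not differ beyond their spread. Slc38a1, a glutamine carrier related to Slc38a2, was lowest with 9.93 ± 2.30. It lies at the 9.52 percentile of the tested genes, although its long annotated exons (17236 bases) lower a value per kilobase. Exons of Slc7a10 overlap those of Lrp3 on the opposite strand, and the use of strand in counting is not given in the sources used here, so their reads cannot be told apart. No other member shares exon sequence with another annotated gene.

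**Figure D1:**
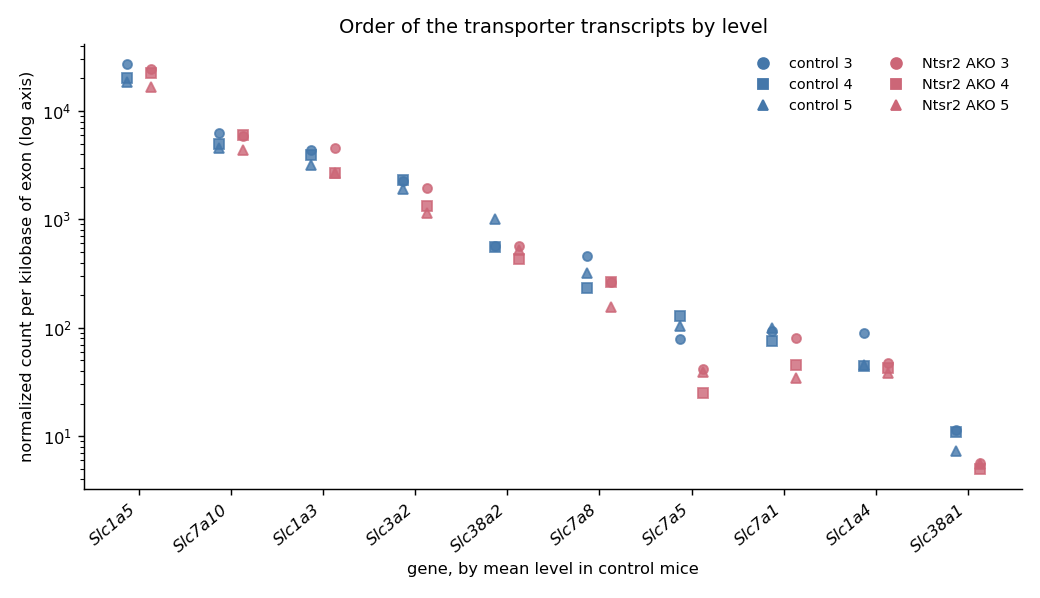
Normalized counts per kilobase of exon (log axis) for the 10 transporters, ordered by the mean of the 3 control mice, with 1 point for each mouse (blue control, red Ntsr2 AKO, shape for the replicate number). Slc1a5 stands above all others in every mouse, and the 3 Ntsr2 AKO mice lie below the 3 control mice for Slc7a5 and Slc38a1.

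Slc7a5 (chromosome 8, 121881150 to 121907694, minus strand, GRCm38) differed most between the genotypes. Its normalized counts were 289, 474 and 388 in control 3, 4 and 5, against 155, 93.3 and 144 in Ntsr2 AKO 3, 4 and 5. All 3 Ntsr2 AKO mice lay below the 3 control mice, and the mean in Ntsr2 AKO mice was 0.341 of that in control mice. The log2 difference, on the scale of log2(normalized count + 1) used throughout, was -1.55 (standard error 0.30). In control 3, control 4 and Ntsr2 AKO 3 alone it was -1.25. Summed macrophage markers overlapped between the groups. The sum of 6 of them, all found in every mouse, was 29142, 87983 and 53193 in control 3, 4 and 5, against 43223, 30381 and 71299 in Ntsr2 AKO 3, 4 and 5. Within the control mice it had the same order as Slc7a5, and of the Ntsr2 AKO mice both were lowest in Ntsr2 AKO 4. The part of macrophage RNA in the values of Slc7a5 was not tested.

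Slc38a1 (chromosome 15, 96571418 to 96642913, minus strand) was the other transcript without overlap. It had 198, 190 and 126 normalized counts in control 3, 4 and 5, against 98.1, 86.0 and 96.1 in Ntsr2 AKO 3, 4 and 5. The Ntsr2 AKO mice were close together, while control 5 lay nearer to them than to the other control mice. The log2 difference was -0.84 (standard error 0.28), and -0.98 in the 3 mice with little muscle RNA. Thus 2 of 10 members had all Ntsr2 AKO mice below all control mice, against 8.16% of the 16157 genes tested. The reverse order was found for 0 of 10 members, against 6.82%.

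**Figure D2:**
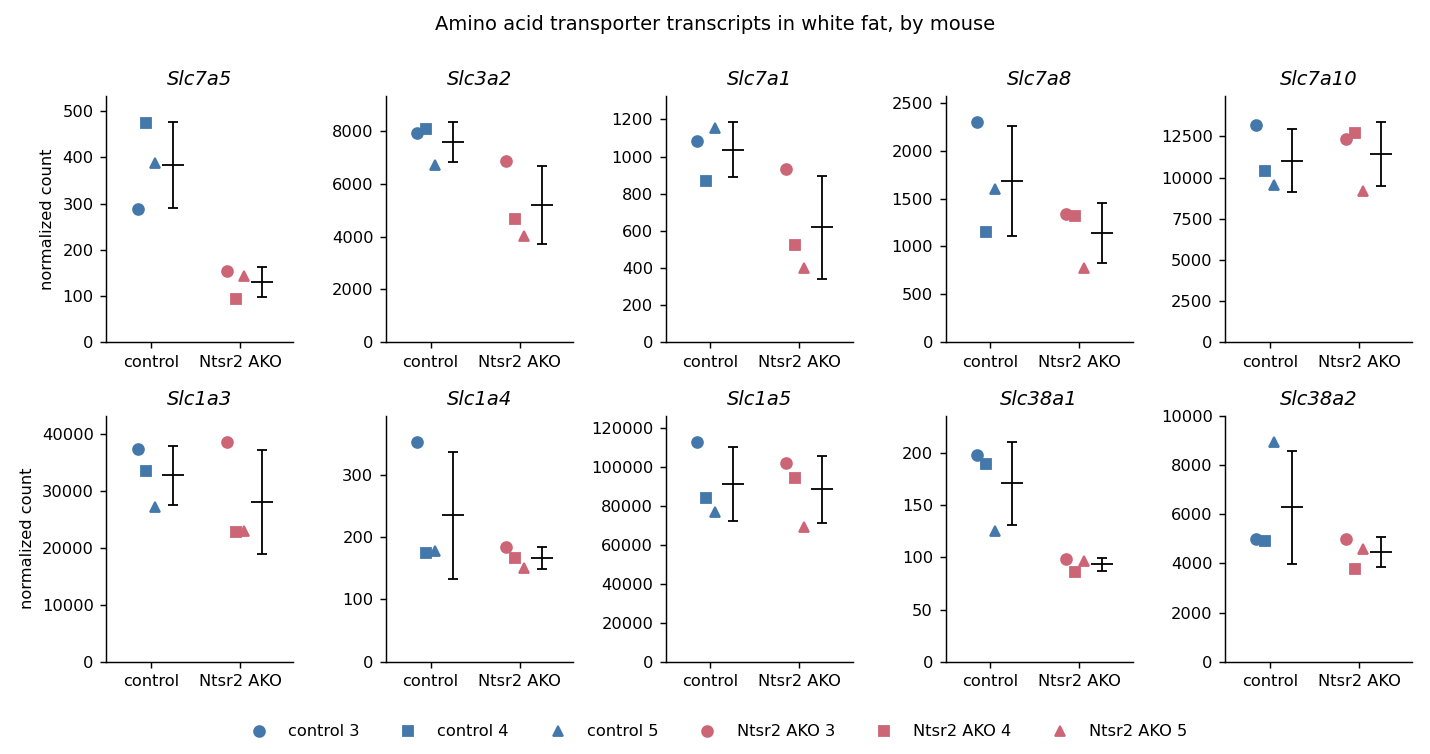
Normalized counts of each transporter (vertical axes from 0, each with its own scale) in 3 control mice (blue) and 3 Ntsr2 AKO mice (red), with the mean and SD of each group beside the points. The groups are apart for Slc7a5 and Slc38a1, and for Slc3a2, Slc7a1 and Slc1a3 Ntsr2 AKO 3 lies among or above the control mice.

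The heavy chain Slc3a2 (chromosome 19, 8706882 to 8723369, minus strand) had 7933, 8088 and 6728 normalized counts in control 3, 4 and 5, against 6858, 4669 and 4035 in Ntsr2 AKO 3, 4 and 5. Ntsr2 AKO 3 lay above control 5, so the groups overlapped, and the log2 difference was -0.58 (standard error 0.21). Slc7a1 (chromosome 5, 148327410 to 148399904, minus strand) had a like pattern, with 1086, 871 and 1152 in the control mice, against 932, 521 and 399.8 in the Ntsr2 AKO mice. Its log2 difference of -0.83 (standard error 0.32) came from Ntsr2 AKO 4 and 5. In the 3 mice with little muscle RNA the difference was -0.22 for Slc3a2 and -0.06 for Slc7a1.

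Among the light chains that pair with Slc3a2, the values took different courses. Slc7a8 (chromosome 14, 54722209 to 54781946, minus strand) had 2295, 1153 and 1599 normalized counts in control 3, 4 and 5, against 1335, 1314 and 774 in Ntsr2 AKO 3, 4 and 5. The groups overlapped, and the log2 difference of -0.55 (standard error 0.31) was -0.29 without control 3 and -0.29 without Ntsr2 AKO 5. Slc7a10 (chromosome 7, 35186385 to 35201114, plus strand) had 13164.5, 10386 and 9535 in the control mice, against 12357.5, 12696 and 9199.6 in the Ntsr2 AKO mice. With means of 11028.5 ± 1898 and 11418 ± 1928 (SD, n = 3 each), its log2 difference of 0.05 (standard error 0.18) was smaller than its error.

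The ratio of each light chain to Slc3a2, per kilobase, describes the balance of the partner transcripts in each mouse. For Slc7a5 it was 0.0347, 0.0557 and 0.0548 in control 3, 4 and 5, against 0.0215, 0.0190 and 0.0339 in Ntsr2 AKO 3, 4 and 5. The groups did not overlap, by a narrow margin between control 3 and Ntsr2 AKO 5, and the log2 ratio differed by -0.98. For Slc7a10 the ratio was 2.77, 2.15 and 2.37 in control mice, against 3.01, 4.54 and 3.81 in Ntsr2 AKO mice, again without overlap. The log2 ratio differed by 0.63, with log2 differences of 0.05 for Slc7a10 itself and -0.58 for Slc3a2. For Slc7a8 the groups overlapped, with a log2 difference of 0.03. Of these 3 light chains, Slc7a10 had the highest transcript level and Slc7a5 the lowest. The reads that Slc7a10 may share with Lrp3 enter its ratio.

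Of the SLC1 family, Slc1a5 (chromosome 7, 16781340 to 16798274, plus strand) had 112861, 83993 and 77150 normalized counts in control 3, 4 and 5, against 101836, 94422 and 69289 in Ntsr2 AKO 3, 4 and 5. The groups covered almost the same range (log2 difference -0.04, standard error 0.23). Slc1a3 (chromosome 15, 8634124 to 8710764, minus strand) had 37378, 33515 and 27149 in the control mice, against 38549.5, 22731 and 22863 in the Ntsr2 AKO mice. Ntsr2 AKO 3 was the highest of the 6 mice, and Ntsr2 AKO 4 and 5 were the lowest, with a log2 difference of -0.25 (standard error 0.25) over all mice, -0.51 to -0.13 with 1 mouse left out and 0.12 in the 3 with little muscle RNA. Slc1a4 (chromosome 11, 20302180 to 20332713, minus strand) had 352, 174 and 177 in the control mice, against 185, 166 and 149.8 in the Ntsr2 AKO mice. Its log2 difference of -0.41 (standard error 0.33) rested on control 3, and without that mouse it was -0.08. Control 3 also stood apart in summed lymphocyte markers (1560, against 233 to 482 in the others) and mammary epithelial markers (191, against 0 to 11.5). Of the white adipocyte markers it was highest for Lep (67722, against 5997 to 17222), Pparg (14326, against 4724 to 9602) and Plin1 (96786). This did not hold for Adipoq, Cidec, Fabp4 and Lipe. The part of all these markers in the value of Slc1a4 was not tested.

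Slc38a2 (chromosome 15, 96687392 to 96699730, minus strand), which lies near Slc38a1, had 4998, 4890 and 8935 normalized counts in control 3, 4 and 5, against 4982, 3783 and 4583 in Ntsr2 AKO 3, 4 and 5. Control 5, the mouse with most muscle RNA, was far above the others, and the log2 difference of -0.45 (standard error 0.25) was -0.16 without it. The part of muscle RNA in this value was not tested.

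**Figure D3:**
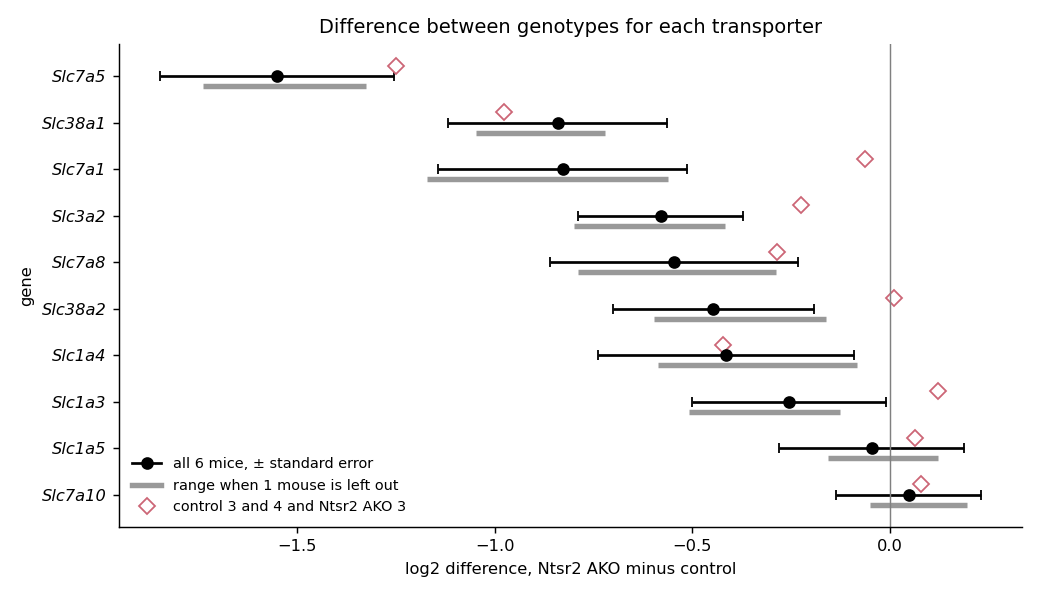
Log2 difference (Ntsr2 AKO minus control) of each transporter in all 6 mice with its standard error (black), the range over fits that leave out 1 mouse (grey bars) and the value in control 3, control 4 and Ntsr2 AKO 3 alone (open diamonds). Slc7a5 and Slc38a1 keep values below -0.7 throughout, while the diamonds of Slc7a1, Slc38a2, Slc1a3, Slc1a5 and Slc7a10 lie near 0 or above it.

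Over the 10 transporters, 9 had a log2 difference below 0, against 51% of all genes tested, and the median was -0.50, against -0.01. None passed an adjusted p of 0.05 in limma, where 0.00619% of genes did. The adjusted p from limma ranged from 0.499 for Slc7a5 to 0.968 for Slc1a5. An unadjusted p under 0.05 was reached by 4 of them (Slc7a5, Slc38a1, Slc3a2 and Slc7a1), all lower, against 8.35% of all genes in either direction and 5.27% lower. In edgeR's quasi-likelihood test on the recovered reads 0 of the 10 passed and 3 had an unadjusted p under 0.05, against 8.19% of all genes and 4.9% lower. In DESeq2 1 of the 10 passed, Slc7a5 (adjusted p = 0.00119), where 1.36% of genes did, 0.953% lower and 0.408% higher. An unadjusted p under 0.05 was given by DESeq2 to 4 of the 10, against 10.4% of all genes and 6.39% lower. Since the members were chosen with this comparison known, these counts carry that choice and support nothing further.

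The Ntsr2 AKO mice differed from each other in these transcripts. Ntsr2 AKO 5 was below the lowest control mouse for 10 of 10 transporters, against 29.3% of all genes tested. Ntsr2 AKO 4 was below the lowest control mouse for 7 of 10, against 26.9%, and Ntsr2 AKO 3 for 2 of 10 (Slc7a5 and Slc38a1), against 20.2%. For each of the 10 transcripts the lowest of the 6 mice was Ntsr2 AKO 4 or 5. Over the 16157 genes tested, Ntsr2 AKO 4 was the lowest for 2579 and Ntsr2 AKO 5 for 3384. The median deviation of the 10 from the control mean was -0.20 in Ntsr2 AKO 3, -0.59 in Ntsr2 AKO 4 and -0.68 in Ntsr2 AKO 5, on the log2 scale. Among the control mice it was 0.22, -0.09 and -0.18 in control 3, 4 and 5. In control 3, control 4 and Ntsr2 AKO 3 alone, the median log2 difference of the 10 transporters was -0.14. Ntsr2 AKO 4 and 5 are the Ntsr2 AKO mice with muscle RNA, and control 5, which held far more (4.07% of its normalized counts), had the lowest median of the control mice. Ntsr2 AKO 5 was also the highest of the 6 mice in the summed markers of adipose progenitors (219235, against 76078 to 139608 in the others), brown adipocytes (11088, against 3427 to 7815) and erythroid cells (173810, against 51611 to 143074). For the white adipocyte markers Plin1, Cidec and Lipe, Ntsr2 AKO 5 was the lowest of the 6 mice, but not for the rest of that list. The part of muscle RNA, of these cells and of white adipocyte RNA in the values of the transporters was not tested.

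**Figure D4:**
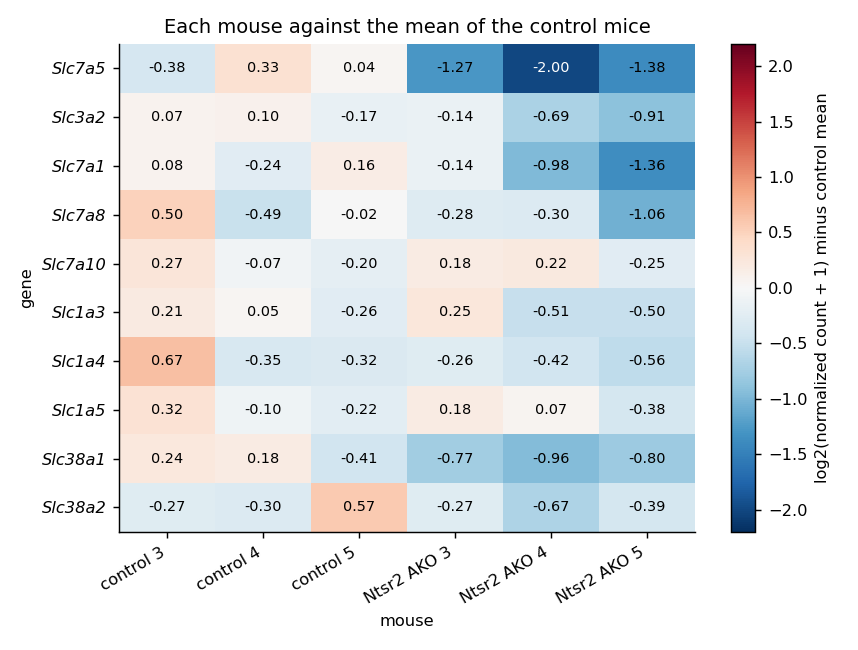
Log2(normalized count + 1) of each transporter in each of the 6 mice minus the mean of the 3 control mice (blue lower, red higher, values in the cells). Ntsr2 AKO 5 is below the control mean for all 10 transporters, and Ntsr2 AKO 3 is far below it for Slc7a5 and Slc38a1.

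Steadiness within a genotype also varied among the 10. Slc3a2 had an SD of 0.15 on the log2 scale in control mice, less than the median of 0.28 over all genes tested, but 0.40 in Ntsr2 AKO mice, where the median was 0.25. Slc7a1 went from 0.21 to 0.62 and Slc1a3 from 0.23 to 0.44. Slc1a4 and Slc38a1 had the opposite order, with 0.58 and 0.36 in control and 0.15 and 0.10 in Ntsr2 AKO mice. With 3 mice in each group these differences in spread were not tested.

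The genes whose values over the 6 mice were most like those of Slc7a5 included Pik3r5, Fgl2, Ifi205 and Fam78b. Their root mean square differences from Slc7a5, on the log2 scale centred on each gene, ran from 0.14 for Pik3r5 to 0.27 for Fam78b. Pik3r5 had 1221, 1803 and 1509 normalized counts in control 3, 4 and 5, against 778, 376 and 664 in Ntsr2 AKO 3, 4 and 5. Its order of mice was therefore close to that of Slc7a5, with control 4 highest and Ntsr2 AKO 4 lowest. The genes most like Slc7a10 were Ankrd27, Dnase1l2, Epas1, Mpzl1 and Nkd2, with differences of 0.03 to 0.05. The 6 mice are the only points of this likeness, and they differ in genotype, reads counted and muscle RNA.

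Other plasma membrane transporters of amino acids showed no common direction. Of 30 listed genes 27 were in the table and 19 were tested, with 7 below and 12 above 0 and a median log2 difference of 0.09. None passed an adjusted p of 0.05 in limma, edgeR or DESeq2, and an unadjusted p under 0.05 was reached by 3 in limma, 2 in edgeR and 4 in DESeq2, against 8.35%, 8.19% and 10.4% of all genes tested. DESeq2 gave no adjusted p to Slc3a1, Slc6a15, Slc7a11, Slc7a13, Slc38a3 and Slc38a4. The smallest p values belonged to Slc7a3, Slc7a11 and Slc6a7. Slc7a3, a cationic amino acid carrier, had 35.9, 29.9 and 9.59 normalized counts in control 3, 4 and 5, against 65.0, 85.0 and 58.7 in Ntsr2 AKO 3, 4 and 5. Slc6a7, a proline carrier, had 63.5, 46.4 and 75.8 in the control mice, against 115, 148 and 90.1 in the Ntsr2 AKO mice. In both, the lowest Ntsr2 AKO mouse exceeded the highest control mouse, which held for 2 of the 19 (10.5%), against 6.82% of all genes tested. Slc7a11, the cystine and glutamate exchanger that shares the heavy chain SLC3A2, had 58.9, 16.5 and 25.9 in the control mice, against 16.5, 0 and 0 in the Ntsr2 AKO mice. The counts of Slc7a3 and Slc7a11 are lower than those of any member, and their relative counting error is accordingly larger. In 1 of the 19 (5.26%, against 8.16% of all genes), the glutamate carrier Slc1a1, the groups were apart in the other direction, with means of 251 ± 99.1 and 132 ± 55.3 (SD, n = 3 each). The margin was narrow, between 182.6 in control 4 and 180.4 in Ntsr2 AKO 4. In control 5, with most muscle RNA, Slc7a2 had 1441 normalized counts (115 to 211 in the others) and Slc38a3 had 1025 (0 to 63.2). Slc38a4 had 5637 there, against 23.0 to 830 in the others. Whether muscle RNA has a part in these values was not tested.

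Genes listed for the ATF4 program, other than transporters, were divided by role. Of 16 tested stress effectors 13 were below 0, against 51% of all genes tested, with a median log2 difference of -0.31. Of the 16, 3 genes, Atf4, Atf3 and Gdf15, were lower in all Ntsr2 AKO mice than in any control mouse, against 8.16% of all genes tested. Gdf15, a stress-induced hormone, had means of 69.1 ± 20.7 and 23.3 ± 10.5 in control and Ntsr2 AKO mice, and the transcription factor Atf3 of 558 ± 86.4 and 259 ± 113 (SD, n = 3 each). Gdf15 ran only from 13.2 to 89.2 normalized counts over the 6 mice, so its relative counting error is larger. Atf4 itself had 11264, 8919 and 10675 normalized counts in control 3, 4 and 5, against 8725, 7386 and 6002 in Ntsr2 AKO 3, 4 and 5. Its log2 difference was -0.49 (standard error 0.17), and Ntsr2 AKO 5 was the lowest mouse. Whether Atf4 has a part in the values of the transporters was not tested. Of 12 enzymes of amino acid and one-carbon synthesis 6 were below 0, with a median of -0.05. Shmt2, Mthfd2 and Got1 had the smallest p among them, with log2 differences of -0.49, -0.68 and -1.01. The groups did not overlap for 2 of the 12, Shmt2 and Mthfd2, both lower after deletion, which held for 8.16% of all genes. The alanine aminotransferase Gpt2 was the 1 gene of the 12 with higher values in all Ntsr2 AKO mice (log2 difference 0.08), near the 6.82% of all genes.

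The cytosolic tRNA synthetases, which load amino acids onto tRNAs, were below 0 for 12 of 12 genes, with a median of -0.40. In 8 of 12 the groups were apart with all Ntsr2 AKO mice lower, against 8.16% of all genes tested. The core TGATGNAA was found in 5 of the 7 synthetases with a promoter window, in 6 of 16 stress effectors and in 3 of 11 synthesis enzymes, against 4.51% of all genes with a window. Wars, Aars and Tars had the smallest p, with log2 differences of -0.50, -0.41 and -0.51. Of the 40 tested genes in these ATF4 lists, 0 passed an adjusted p of 0.05 in limma, edgeR or DESeq2, while 14, 15 and 17 had an unadjusted p under 0.05, against 8.35%, 8.19% and 10.4% of all genes tested. In the 3 mice with little muscle RNA the medians were -0.12 for the stress effectors, -0.07 for the synthesis enzymes and -0.12 for the synthetases. The median deviation from the control mean in Ntsr2 AKO 3, 4 and 5 was -0.21, -0.54 and -0.44 for the synthetases. For the stress effectors it was -0.17, -0.33 and -0.61. In both lists Ntsr2 AKO 3 was nearest to the control mice, whereas for the synthesis enzymes (-0.17, -0.30 and -0.05) Ntsr2 AKO 5 was. For the synthetases, control 5, the mouse with most muscle RNA, was at 0.14, against -0.07 and -0.05 in control 3 and 4. It was the highest of the 6 mice for 9 of these 12 genes, against 3554 of the 16157 genes tested. The part of muscle RNA in these values was not tested.

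**Figure D5:**
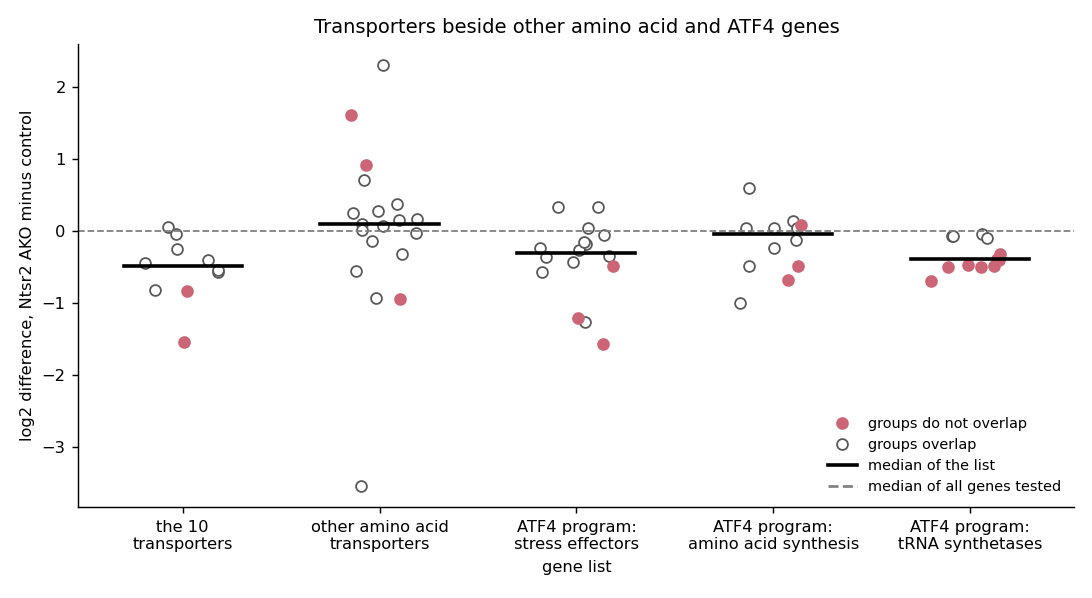
Log2 difference (Ntsr2 AKO minus control) of each tested gene in the 10 transporters, the other amino acid transporters and the ATF4 lists, with filled points where the groups of 3 mice do not overlap, bars at the medians of the lists and a dashed line at the median of all genes tested. The medians are -0.50, 0.09, -0.31, -0.05 and -0.40 from left to right.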

How the data were processed

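Total RNA of WATs from 3 control and 3 Ntsr2 AKO mice was sequenced after poly-A selection with a NEBNext Ultra kit. Adapters and low-quality bases were removed with Trimmomatic, reads were aligned with Hisat2 and counted with StringTie. The submitters' processing notes name mm10, while versions and annotation are not given in the sources used here. The signal values deposited by the authors are normalized counts, or read counts divided by 1 size factor for each mouse. All values (100%) of each column were whole multiples of its smallest value, within 0.01, and reads were recovered by that division. No columns were identical.

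The 16157 genes that averaged 10 or more normalized counts over the 6 mice were tested in R 4.3.3 with limma 3.58.1 on log2(normalized count + 1), with a mean-variance trend, no covariate, Benjamini-Hochberg adjustment over all genes and a threshold of 0.05. edgeR 4.0.16 and DESeq2 1.42.0 on recovered reads, pseudocounts of 0.1 and 5, other filters, quantile and TMM scaling, the replicate number as a block and the omission of each mouse were alternatives. The procedures were tested on simulated counts. Lengths and positions are from GENCODE M21 (GRCm38, the assembly that mm10 stands for), with 1 gene of the same name for 19726 of 21456 genes.

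The members and gene lists were chosen with earlier results of these data known. All members, the 3 genes of each list with the smallest p, Atf4 and the 5 genes most like Slc7a5 and Slc7a10 were named, except 1 gene that is not reported here. Slc1a1, Gpt2, Slc3a1, Slc6a15, Slc7a2, Slc7a13, Slc38a3, Slc38a4 and the single white adipocyte markers were named after their values were seen. Markers of other cell types (brown adipocyte, lymphocyte, endothelial, progenitor, mesothelial, mammary epithelial, Schwann and erythroid) had overlapping sums in control and Ntsr2 AKO mice, except the mammary epithelial list.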

Additional observations from a re-analysis of the deposited data

How the results depend on the processing

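The log2 differences of 8 of the 10 transporters stayed below 0 under each of the 16 alternatives, from -1.74 to -1.33 for Slc7a5 and from -1.05 to -0.72 for Slc38a1. Those of Slc7a10 (-0.05 to 0.20) and Slc1a5 (-0.16 to 0.13) changed sign. The median of the 10 ranged from -0.61 to -0.38, also when 1 mouse was left out, and was -0.14 in the 3 mice with little muscle RNA, a choice made after the data were seen, where the lone Ntsr2 AKO mouse is assumed to vary like the control mice. There, Slc38a2 (0.01) and Slc1a3 (0.12) were above 0 too. When 1 mouse was left out, 2 to 7 transporters were lower in every Ntsr2 AKO mouse. The number was 7 without Ntsr2 AKO 3, where 16.1% of all genes were, and 5 without control 4, where 15.5% were. Over all genes 1 passed the adjusted threshold in limma. The number was 0 without a filter, with TMM scaling and voom, without the trend, with edgeR, with any 1 mouse left out (0 to 0) and in the 3 mice with little muscle RNA, and 220 in DESeq2, where 1 transporter passed. The adjusted p of Slc7a5 ranged from 0.00119 (DESeq2) to 0.974 (without Ntsr2 AKO 4). The groups share the replicate numbers 3, 4 and 5. Deviations of same-numbered mice correlated across genes at 0.45, -0.24 and 0.41, and those of other pairs at -0.52 to 0.26. Deviations centred within groups of 3, with unequal muscle RNA, cannot tell whether the mice were paired, and no pairing is stated. With the replicate block 0 genes passed, and the adjusted p of Slc7a5 was 0.515. Among genes with an unadjusted p under 0.05, 852 were lower and 497 higher, against 612 and 633 after quantile normalization, which moved the median of all genes from -0.01 to 0.04. Depth limits Slc7a3, Slc7a11 and Gdf15, which had few reads.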
